A study of Mus musculus with 64 samples.

Results

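The flavin-containing monooxygenases measured here were Fmo1, Fmo2, Fmo4 and Fmo5, 4 of the 23338 genes listed in the deposited count files. These 4 genes were chosen by symbol, with their levels in these same libraries known, for how they differed between stages and between adult males and females. RNA sequencing had been done on 64 libraries from C57BL/6 mice (C57BL/6 J in the study's methods), with no engineered allele named in the labels. They comprised 12 whole eight-cell embryos (6 male and 6 female, from natural matings and sharing 4 litters), 4 embryonic stem (ES) cell lines (2 male and 2 female, derived from embryos and kept in 2i medium, which holds a MEK and a GSK3 inhibitor), 24 fetal livers (12 male and 12 female) and 24 adult livers (12 male and 12 female). Fetal livers came from late gestation, and adult livers from mice killed at 15 to 20 weeks. Embryos were sexed from their own expression of Xist and a Y-linked gene, and ES lines and fetuses by PCR for a Y-linked gene.

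Flavin monooxygenases are enzymes of the endoplasmic reticulum that hold an FAD cofactor, take electrons from NADPH and insert an oxygen atom from molecular oxygen into nitrogen, sulphur or carbonyl groups of drugs, dietary amines and other small molecules. They act beside the cytochromes P450 in hepatic metabolism of foreign compounds. FMO1 oxygenates a broad range of amines and sulphides and converts hypotaurine to taurine. FMO2 is best known as a lung enzyme. FMO5 carries out Baeyer-Villiger oxidation of ketones and is abundant in liver, whereas the substrates of FMO4 are poorly described.

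Fmo4 (chr1:162793188-162813972), Fmo1 (chr1:162829561-162866610) and Fmo2 (chr1:162874317-162898726) lay in that order on the minus strand of chromosome 1 in the GRCm38 assembly (GENCODE annotation). Fmo5 (chr3:97628804-97655282) lay apart from them on the plus strand of chromosome 3. No GENCODE exon of another gene overlapped their exons, although RefSeq extends Fmo5 into its neighbour Chd1l. The 250 bases before an annotated start of Fmo2, the member whose level differed most between adult males and females, are shown because this window holds no annotated exon (RefSeq, GRCm38.p6, minus strand, chr1:162898759-162899008, 5′ to 3′).
Fmo2 upstream window: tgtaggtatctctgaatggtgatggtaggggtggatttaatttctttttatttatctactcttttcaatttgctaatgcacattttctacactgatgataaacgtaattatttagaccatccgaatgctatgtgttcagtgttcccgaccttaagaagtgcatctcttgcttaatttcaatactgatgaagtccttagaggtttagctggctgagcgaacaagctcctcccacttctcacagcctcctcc
This window was AT-rich, at 39.6% GC and 4 CG pairs, against medians of 52.4% and 6 over 32841 promoter windows of that length. The letters TTCNNNGAA, TATAAA and GGGCGG, searched on both strands, were not found in it, hence no capitals. They were held by 7.022%, 12.369% and 32.749% of all windows.

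Libraries held 1567583 to 10386931 reads on genes, the adult livers being shallowest (1567583 to 4757610) and the fetal livers deeper (5145371 to 8499603). A count of 3 reads, taken as the floor of detection, equalled 0.631 to 1.91 CPM (the count scaled to library size) in adult livers and 0.353 to 0.583 CPM in fetal livers, and covers counting error only. CPM were scaled by trimmed mean of M values (TMM) factors over all libraries unless stated. No library went against its sex label by Xist and Ddx3y. For the embryos, sexed from their own expression of Xist and a Y-linked gene, this check was not independent of the label. The labels name the samples as separate but say nothing of litters or cages of the livers, so that errors and p-values measure the spread between these samples. Summed hepatocyte markers (5 of 5 detected) lay between 19322 and 26330 CPM in fetal livers and between 40051 and 57611 CPM in adult livers. Summed erythroid markers (5 genes) were 241.7 CPM at most in any adult liver, against 4165 and 4810 CPM as the medians of fetal males and females. In such bulk tissue fewer cells of a type and less RNA per cell cannot be told apart.

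In eight-cell embryos and ES lines these genes had few or no reads. Fmo1, Fmo2 and Fmo4 had 0 reads in all 12 eight-cell embryos, where 3 reads would equal 0.388 to 0.644 CPM. Fmo5 had 22 reads (3.19 CPM) in male embryo 6 and 0 in the other 11. Among ES lines Fmo1 had 0 reads in both male lines and 1 and 3 reads in the female lines. Fmo5 had 3 reads in each male line and 1 in each female line, and Fmo2 and Fmo4 had none. Apart from male embryo 6, no embryo or ES line exceeded 3 reads for any member. None of the 4 genes passed the filter on low counts in these stages, and no sex difference was tested there.

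Fetal livers expressed all 4 genes. Fmo1 was the highest for its length, at 19.96 CPM per kilobase of exon in males and 17.4 in females, ahead of Fmo5 (8.44 and 7.33), Fmo4 (2.58 and 3.04) and Fmo2 (0.282 and 0.275). Adult males had another order. There Fmo5 stood at 93.4 CPM per kilobase, Fmo1 at 25.7, Fmo2 at 2.37 and Fmo4 at 1.75. Adult females held Fmo1 and Fmo5 at 62.5 and 56.8 CPM per kilobase, with the lowest to highest livers spanning 51.0 to 72.8 and 48.9 to 64.8, so that these neighbours overlapped. Female Fmo2 stood at 14.5 and Fmo4 at 5.22 CPM per kilobase. With the length of the longest coding transcript in place of all exons, female Fmo1 rose to 165 CPM per kilobase and Fmo5 to 62.0, so the distance between them depends on the gene model.

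**Figure D1:**
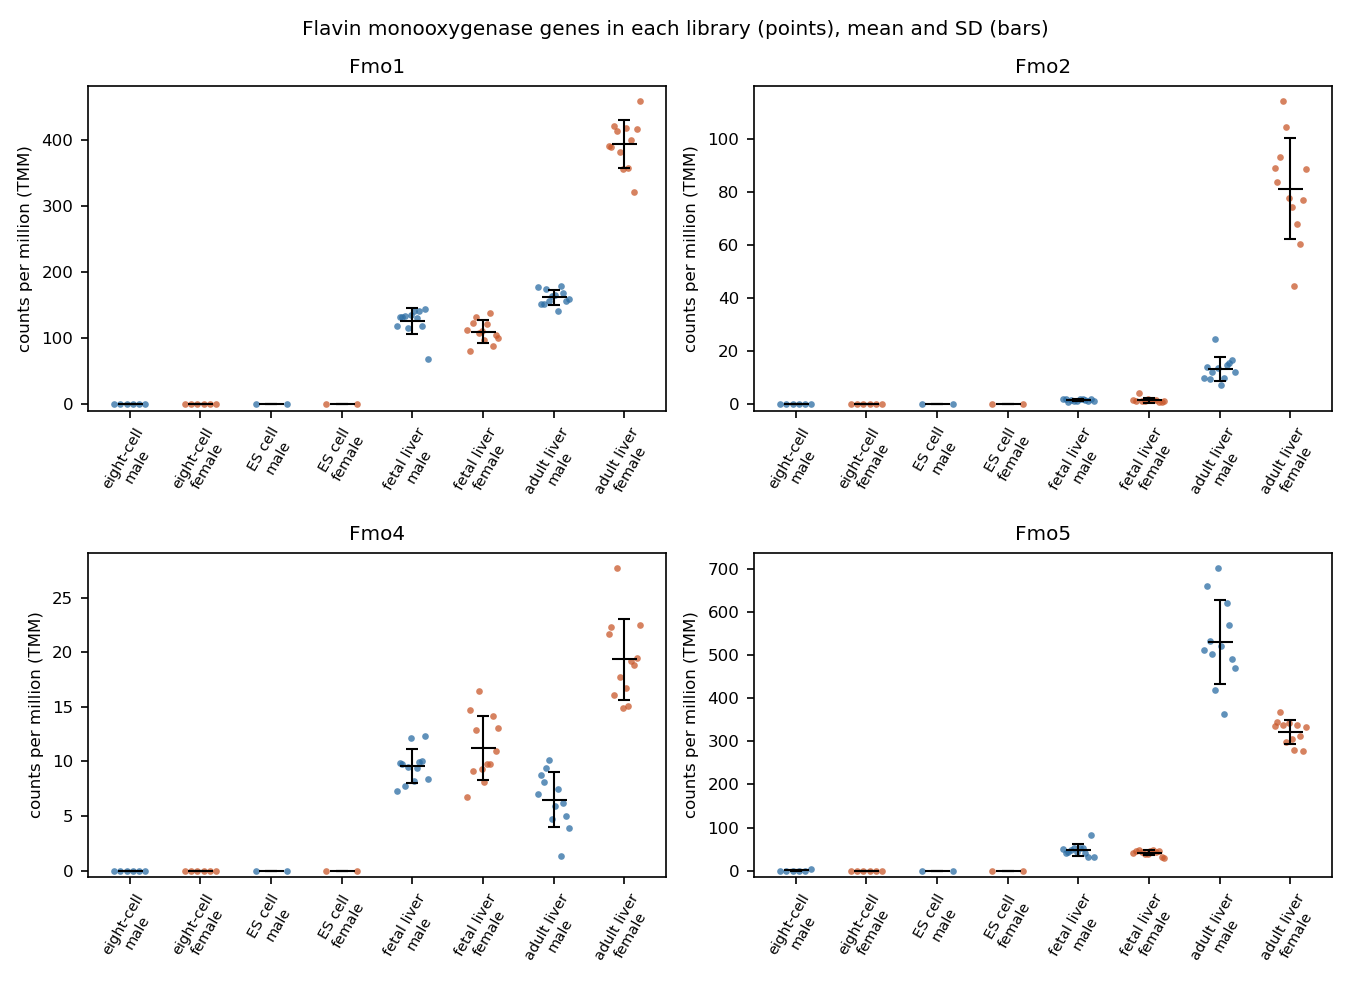
CPM (TMM-scaled, linear axes) of each member in every library, male libraries in blue and female in orange, with the mean and SD of each group in black. Adult females stand above all other livers for Fmo1 and Fmo2, adult males stand highest for Fmo5, and embryos and ES lines lie at or near 0.

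Fmo1 was higher in adult females than in every other group. Its levels ran from 321 through a median of 396 to 459 CPM in adult females, and from 142 through 162 to 179 CPM in adult males. All 12 females lay above all 12 males. The means were 394 ± 36.5 (SD, n = 12) and 162 ± 11.5 CPM (SD, n = 12), 2.43-fold apart. Adult log2 (male/female) was -1.29 (SE 0.058). In fetal livers it ran from 69.2 through 132 to 144 CPM in males and from 80.4 through 110.0 to 138 CPM in females. Fetal males and females overlapped, the lowest value belonging to male 12.

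Fmo2 had the widest adult sex gap of the 4. Adult female values ran from 44.6 through 80.7 to 114 CPM, and adult male values from 7.23 through 12.9 to 24.4 CPM. No male reached the lowest female. Means were 81.2 ± 18.8 (SD, n = 12) and 13.3 ± 4.47 CPM (SD, n = 12), 6.10-fold apart, with log2 (male/female) of -2.60 (SE 0.146). Fetal livers gave only 5 to 37 reads each. Their levels ran from 0.813 through 1.57 to 2.14 CPM in males and from 0.692 through 1.44 to 4.28 CPM in females. The highest fetal value, in female 15, was the only female value above all males. That liver also had the highest summed stellate or fibroblast markers of the fetal females (1682 CPM, 6 genes, group median 1040 CPM). The next highest sum, 1557 CPM, was in female 14, whose Fmo2 level was 1.37 CPM, below the female median. The part of such cells in these Fmo2 levels was not tested.

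Fmo4, the lowest member for its length in adult males, was also higher in adult females. Levels ran from 14.9 through 19.01 to 27.7 CPM in females and from 1.31 through 6.58 to 10.1 CPM in males, without overlap. The means of 19.3 ± 3.73 and 6.49 ± 2.52 CPM (SD, n = 12 each) were 2.98-fold apart, and log2 (male/female) was -1.58 (SE 0.172). Adult males gave only 4 to 39 reads per liver, so individual male values are imprecise. In fetal livers Fmo4 ran from 7.28 through 9.60 to 12.3 CPM in males and from 6.77 through 10.4 to 16.4 CPM in females. Of the fetal females, 5 lay above all males and 1 lay below them.

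Fmo5 went the other way. Adult male values ran from 363 through 516 to 702 CPM, and adult female values from 277 through 333 to 368 CPM. Of the 12 males, 11 lay above all females, and male 8 was the exception. Without TMM factors the sexes did not overlap. The means of 530.0 ± 96.5 and 322 ± 27.8 CPM (SD, n = 12 each) were 1.64-fold apart, and log2 (male/female) was 0.71 (SE 0.086). Males varied more among themselves, at a coefficient of variation of 18.2% against 8.62% in females. In fetal livers Fmo5 ran from 32.5 through 45.3 to 83.6 CPM in males and from 30.0 through 42.9 to 48.5 CPM in females. The highest value belonged to male 11, which also had the largest share of counted reads outside genes (49.0%) and the highest stellate or fibroblast (1531 CPM) and cholangiocyte (22.5 CPM) marker sums of the fetal males.

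These adult sex differences were among the values that chose the 4 genes and are given as description only. Over all 10372 genes tested in adult liver, 2.52% had male and female ranges that did not overlap, and 1.31% lay lower in males throughout. By the call rule of an adjusted p below 0.1 and an absolute log2 above 0.5, 9.5% were called. Directions were the same in both classes of adult liver separated by the share of mapped reads on genes, each class holding livers of both sexes. With at least 40% (8 males and 8 females), log2 (male/female) was -1.25 for Fmo1, -2.62 for Fmo2, -1.57 for Fmo4 and 0.65 for Fmo5. Under 40% (4 males and 4 females), it was -1.37, -2.56, -1.59 and 0.83 in that order. Markers of other cell types moved with sex in adult liver. Of 5 macrophage markers, 3 were called higher in females, with sums of 442 to 977 CPM in females against 340 to 594 CPM in males. Of 5 endothelial markers, 1 was (sums of 470 to 562 against 390 to 475 CPM). None of 6 stellate or fibroblast markers was called. Hepatocyte sums were 47091 to 57611 CPM in females and 40051 to 48283 CPM in males, with 0 of 5 called. Of the 5 erythroid markers Alas2, an enzyme of haem synthesis, was the only one to pass the filter. It stood at 207 CPM in males and 29.4 CPM in females (log2 2.79, edgeR adjusted p 4.64e-18). The part of these cells in the Fmo levels was not tested.

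In fetal liver, which did not enter the choice by sex, 0 of the 4 genes were called by edgeR or DESeq2 (1 had an unadjusted p below 0.05), against a background of 4.64% of 12930 genes. Over those 12930 genes, 5236 had an unadjusted edgeR p below 0.05. Fmo1 log2 (male/female) was 0.22 (SE 0.091, edgeR adjusted p 0.0657, 95% interval 0.04 to 0.40). It passed the adjusted p but not the fold threshold of 0.5. Fmo2 was at 0.06 (SE 0.229, adjusted p 0.883, interval -0.39 to 0.50), Fmo4 at -0.21 (SE 0.125, adjusted p 0.210, interval -0.46 to 0.03) and Fmo5 at 0.23 (SE 0.117, adjusted p 0.144, interval -0.00046 to 0.46). Fetal cell-type markers also moved with sex in part. Of 4 cholangiocyte markers 3 were called higher in females and 1 in males, with a sum of 281 CPM in female 14 against 31.2 CPM in the next highest female, and 1 of 6 stellate or fibroblast markers was called higher in males. Their part in the fetal values was not tested. Without male 11 the fetal Fmo5 difference was 0.12, and without female 15 the fetal Fmo2 difference was 0.31. The share of counted reads outside genes separated the fetal sexes completely, at 39.9% to 49.0% in males and 34.1% to 38.1% in females. With that share as a covariate the fetal differences were 0.02 for Fmo1, -0.94 for Fmo2, -0.38 for Fmo4 and -0.50 for Fmo5, with adjusted p of 0.860 or more, and 9 genes were called in place of 600. Sex and this property of the fetal libraries cannot be told apart.

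**Figure D2:**
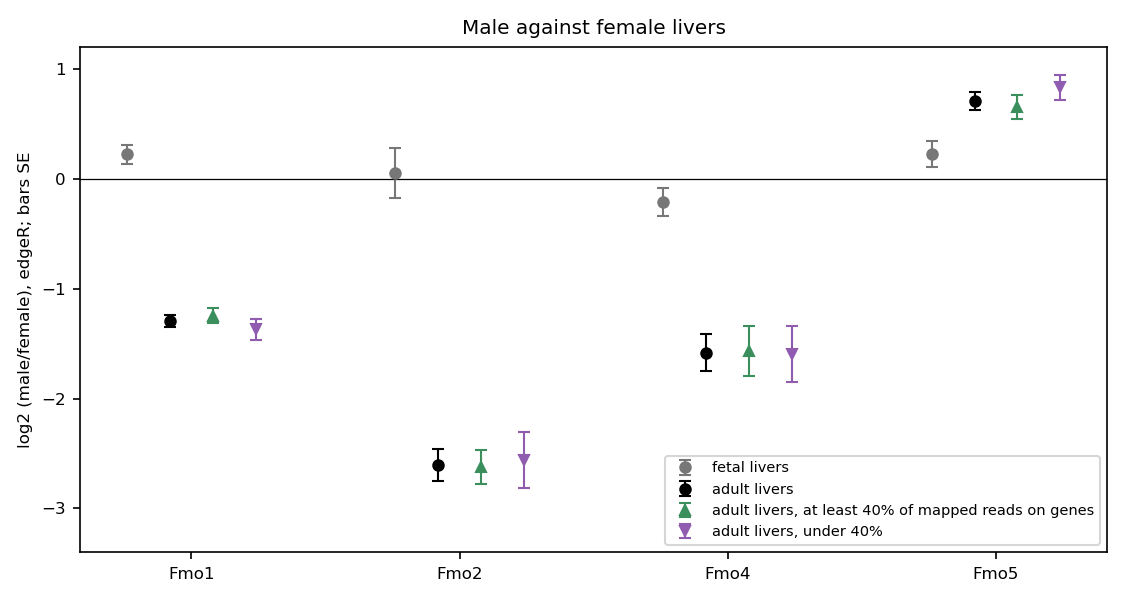
Log2 (male/female) of each member with its SE, from edgeR, in fetal livers (grey), adult livers (black) and adult livers split by the share of mapped reads on genes (green and violet triangles). Fmo1, Fmo2 and Fmo4 lie between -1.25 and -2.62 in each adult class and near 0 in fetal liver, and Fmo5 lies above 0.

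A ratio of 2 members within a liver needs no scaling between libraries. Fmo5 reads per Fmo1 read ran from 0.275 through 0.367 to 0.581 in fetal males and from 0.298 through 0.363 to 0.560 in fetal females, so the fetal sexes overlapped. In adult males the ratio ran from 2.56 through 3.15 to 4.36, and in adult females from 0.666 through 0.828 to 0.972. Every adult male liver therefore held more Fmo5 than Fmo1 reads and every adult female liver fewer. Both adult groups lay above all fetal livers. Fmo2 reads per Fmo1 read averaged 0.0825 ± 0.0290 in adult males and 0.206 ± 0.0426 in adult females (SD, n = 12 each), against 0.0127 and 0.0140 in fetal males and females. Fmo4 reads per Fmo1 read were closer between adult sexes, at 0.0406 ± 0.0165 in males and 0.0492 ± 0.00874 in females (SD, n = 12 each).

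**Figure D3:**
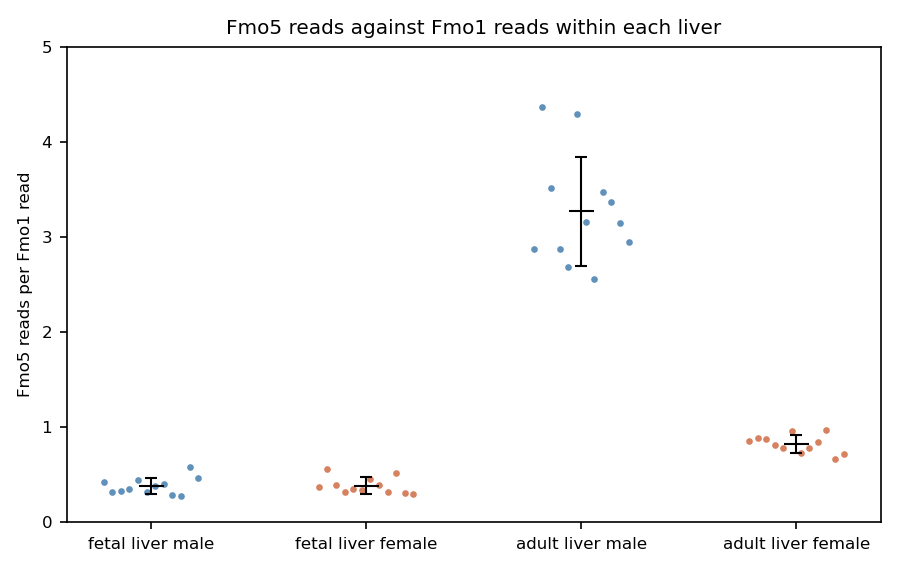
Fmo5 reads per Fmo1 read in each liver (points), with the mean and SD of each group in black. Adult males lie between 2.56 and 4.36, adult females between 0.666 and 0.972, and all fetal livers below 0.6.

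Between fetal and adult liver the members changed unequally. Fmo5 was 11.1-fold higher in adult than fetal males and 7.75-fold higher in adult than fetal females, and every adult liver lay above every fetal liver of its sex. Fmo2 was 8.41-fold higher in males and 52.6-fold higher in females, again without overlap. Fmo1 was 3.59-fold higher in adult females without overlap, but only 1.29-fold higher in adult males, of which 11 of 12 lay above all fetal males. Fmo4 was 1.72-fold higher in adult females and 1.47-fold lower in adult males, with overlap in both sexes. In the fit over both sexes log2 (adult/fetal) was 4.80 (SE 0.219) for Fmo2, 3.34 (SE 0.089) for Fmo5, 1.24 (SE 0.126) for Fmo1 and 0.33 (SE 0.142) for Fmo4. This contrast also entered the choice of the genes and was not tested for them. Of all 13026 genes tested, 67.2% were called between the stages, 31.8% higher in adult and 35.3% higher in fetal liver.

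The scale matters for this contrast. The median gene lay at -0.18 (log2 adult minus fetal) with TMM factors and at -0.61 without, a shift of -0.43. Without TMM factors the male Fmo1 log2 ratio turned from 0.37 to -0.09, whereas the female ratio remained positive at 1.42. Fmo4 stood at -1.02 in males and 0.34 in females. Fmo2 stood at 2.61 and 5.28, and Fmo5 at 3.01 and 2.52. The directions of Fmo2, Fmo4 and Fmo5 in each sex thus held on both scales, and that of Fmo1 held in females only.

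**Figure D4:**
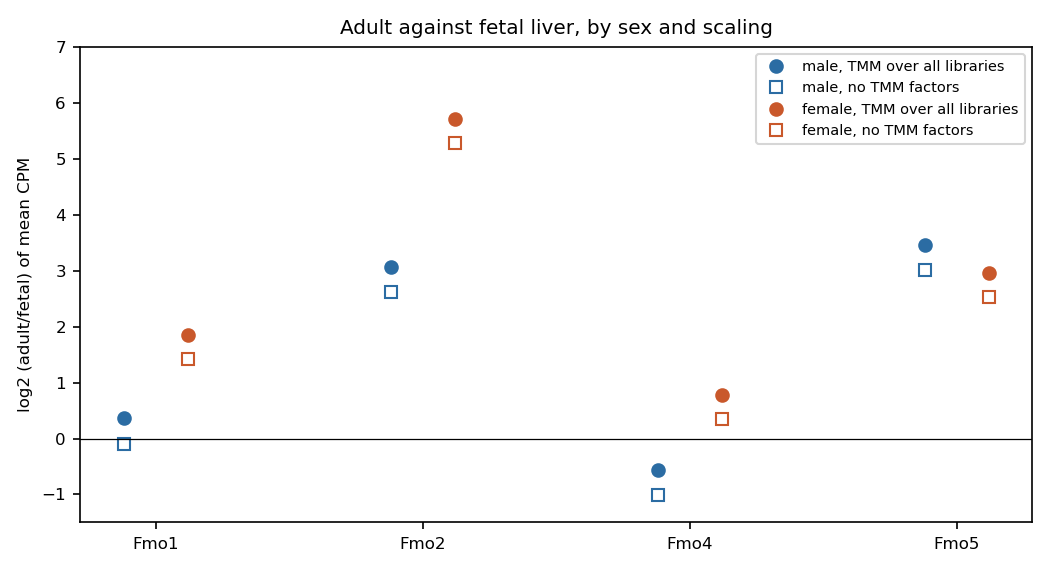
Log2 of adult over fetal mean CPM for each member, males in blue and females in orange, with TMM factors (filled circles) and without (open squares). Fmo2 and Fmo5 lie above 2.5 in both sexes on both scales, Fmo4 lies below 0 in males and above 0 in females, and male Fmo1 crosses 0 with the scale.

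The genes of their biochemical surroundings, taken from lists by function, were tested in the same fits. These lists were drawn up with earlier results of these data known. Their counts and p-values are therefore description and not independent evidence. Taurine synthesis had 1 of 5 tested genes called in adult liver, where 9.5% of all genes were. Cdo1, the cysteine dioxygenase at the head of the pathway, was lower in males (log2 -0.54, SE 0.051, edgeR adjusted p 4.17e-10), at 1150 ± 111 CPM in males and 1663 ± 143 CPM in females (SD, n = 12 each). In the livers with under 40% of mapped reads on genes it was at -0.45, short of the fold threshold. Csad, which makes hypotaurine, was at 0.50 (SE 0.260, adjusted p 0.170) and was not called. Of the 5 genes, 4 rose from fetal to adult liver, among them Baat (log2 4.82), which joins taurine to bile acids, and Cdo1 (log2 4.03), and none fell, with 31.8% and 35.3% of all genes called higher and lower in adult liver. The list's median log2 (adult/fetal) was 1.56, against -0.05 over all genes tested.

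Among 3 tested genes of flavin cofactor supply, Rfk, the kinase that makes FMN from riboflavin, was lower in adult males (log2 -0.66, SE 0.056, edgeR adjusted p 4.62e-11; 62.0 ± 6.93 against 97.4 ± 6.29 CPM). Flad1, which makes FAD, was at 0.15 (adjusted p 0.0752) and was short of the fold threshold. It rose from fetal to adult liver (log2 1.66), the only one of the 3 to do so, with 31.8% of all genes called higher in adult liver. By sex Rfk was the only one of the 3 called in adult liver, where 9.5% of all genes were.

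NADPH supply had 1 gene called in each direction among 6 in adult liver, against 3.01% and 6.49% of all genes called higher and lower in males. H6pd, the hexose-6-phosphate dehydrogenase of the endoplasmic reticulum, was higher in males (log2 0.51, SE 0.070, edgeR adjusted p 1.01e-06). Its cytosolic relative G6pdx was lower in males (log2 -0.62, SE 0.193, adjusted p 0.0167), at 5.83 against 8.64 CPM. Both lay close to the fold threshold. H6pd lost its call in 4 of 24 fits that left out 1 liver (male 9, male 11, female 13 or female 14; 0.49 to 0.50) and in the livers with at least 40% of mapped reads on genes (0.40), and G6pdx lost it without male 10 (-0.50). In the livers with under 40% G6pdx did not pass the low-count filter and was not tested. Between stages 4 of 6 rose in adult liver, led by Me1, the malic enzyme (log2 4.85), and 2 fell, G6pdx (-2.91) and Pgd (-1.06), where 67.2% of all genes were called (31.8% up and 35.3% down).

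Of 11 tested oxidases that use flavin or molybdenum, 7 were called in adult liver, 2 higher and 5 lower in males. The background was 3.01% of genes higher and 6.49% lower in males. Aox3 and Aox1, molybdenum-dependent aldehyde oxidases, were higher in males, Aox3 by log2 1.78 (SE 0.079, edgeR adjusted p 3.02e-18; 2485 ± 388 against 717 ± 88.1 CPM) and Aox1 by 1.00 (SE 0.074, adjusted p 1.41e-12; 323 ± 25.5 against 160.0 ± 27.8 CPM). Smox, a spermine oxidase, was lower in males (log2 -0.93, SE 0.186, adjusted p 3.23e-04). So were Maob (-0.79) and Maoa (-0.58), the monoamine oxidases, Sqle (-0.65), the squalene epoxidase, and Por (-0.60), the reductase that feeds electrons to cytochromes P450. In the livers with at least 40% of mapped reads on genes Maoa (-0.48) fell short of the fold threshold and Sqle (-0.54, edgeR adjusted p 0.103) of the adjusted p. In those with under 40% Por (-0.46, edgeR adjusted p 0.222) was not called and Smox did not pass the low-count filter. Between stages 7 of 12 rose and 3 fell, 10 of 12 called against 67.2% of all genes, with Aox1 (log2 5.58) and Smox (-3.86) at the ends. Between fetal males and females 0 of the 26 tested genes of these 4 lists were called by edgeR and 0 of 28 by DESeq2. With either tool 10 had an unadjusted p below 0.05, and 9 passed the adjusted p but not the fold threshold. Over all 12930 genes tested by edgeR, 4.64% were called and 5236 had an unadjusted p below 0.05.

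**Figure D5:**
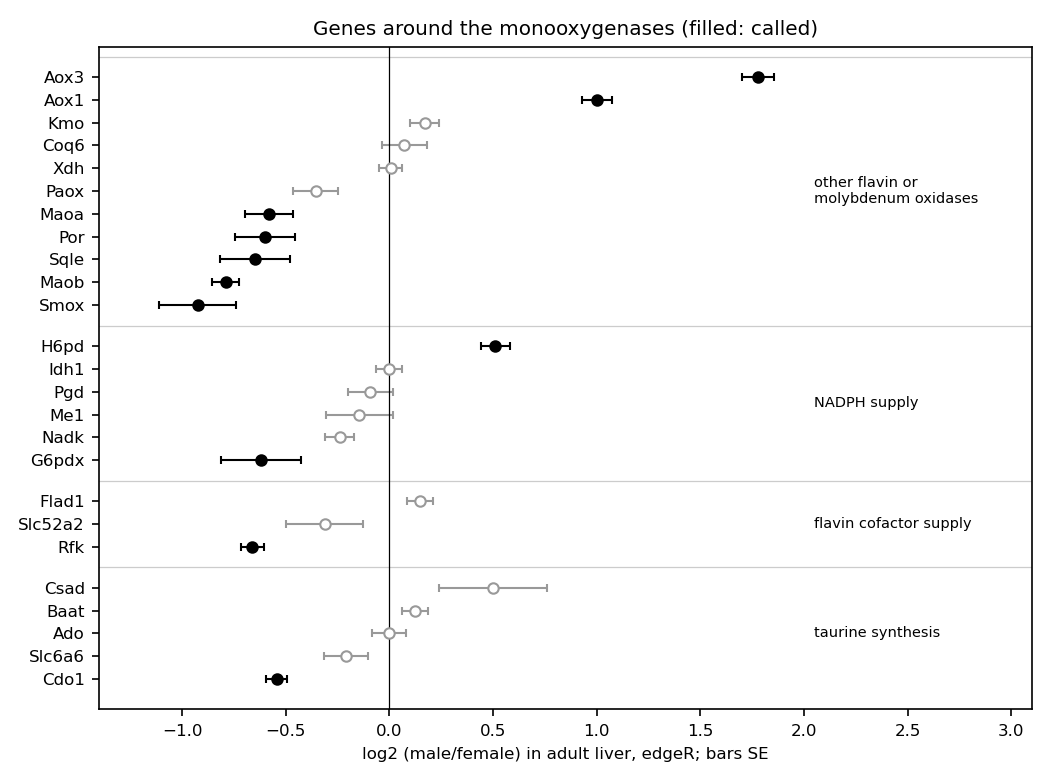
Log2 (male/female) in adult liver with SE, from edgeR, for the tested genes of the 4 functional lists, filled where called. Aox3 and Aox1 lie furthest towards males, at 1.78 and 1.00, and Smox and Maob furthest towards females, at -0.93 and -0.79.

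The nearest genes in the count files on each side of the 2 loci were examined as well. Only genes outside the flavin monooxygenase family were taken, so any other family member lying nearer was passed over. At the chromosome 1 locus the nearest lay 52.63 kb away towards lower coordinates and 125.54 kb away towards higher ones. Of 12 neighbours (3 on each side of each locus), 5 were tested in adult liver and 0 were called by edgeR or DESeq2 (2 had an unadjusted p below 0.05), with edgeR log2 (male/female) of 0.15 for Prrc2c, -0.14 for Gorab, 0.01 for Chd1l, 0.20 for Pde4dip and 0.48 for Sec22b (adjusted p 0.430, 0.534, 0.961, 0.0182 and 4.57e-06). Over all 10372 genes tested by edgeR in adult liver, 9.5% were called and 3823 had an unadjusted p below 0.05. Sec22b and Pde4dip passed the adjusted p but not the fold threshold, and without the low-count filter or in the livers with at least 40% of mapped reads on genes 1 neighbour was called. In fetal liver 2 of 7 were called higher in males (3.81% of all genes tested), Prrc2c (log2 0.83, SE 0.082, edgeR adjusted p 1.17e-07) and Bcl9 (0.90, SE 0.170, adjusted p 2.14e-04). With the share of reads outside genes as a covariate they stood at 0.24 and -0.09 and were not called. Chd1l, which RefSeq overlaps with Fmo5, averaged 19.3 to 22.8 CPM in the 4 liver groups.

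Over the 48 livers, the genes whose log2 CPM followed each member most closely were named, as a description without a test, among 9696 genes outside the family that averaged 10 CPM or more. These livers share their stages and sexes, along which each member's level differs. Fmo1 was followed by Ctsc (Pearson r 0.95), Cyp4a14 (0.94) and 9030619P08Rik (0.94). Fmo2 was followed by Papss2 (0.98), which makes the sulphate donor, Cyp2b10 (0.98) and Acnat2 (0.98). Papss2 averaged 234 CPM in adult males and 539 CPM in adult females. Fmo4 was followed less closely, by Acot3 (0.82), Cyp3a44 (0.80) and Aig1 (0.79). Fmo5 was followed by Phyh (0.99), the phytanoyl-CoA hydroxylase of peroxisomes, Gphn (0.99) and 4930420K17Rik (0.99). Phyh averaged 1925 CPM in adult males and 1343 CPM in adult females, against 184 and 190.1 CPM in fetal males and females. Among the members, r was 0.93 between Fmo1 and Fmo2 and -0.09 between Fmo4 and Fmo5.

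Within a single group of 12 livers the members were not shown to vary together. Of 24 correlations (6 pairs in 4 groups), 0 passed an adjusted p of 0.05 by permutation and 1 had an unadjusted p below 0.05 for Pearson's r. That pair was Fmo2 and Fmo5 in fetal males (Pearson r 0.617, permutation p 0.0299, adjusted p 0.430; Spearman rho 0.643, permutation p 0.0280, adjusted p 0.441), with r of 0.615 once the 2 livers farthest from the median of the first gene were left out. By Spearman's rho a second pair, Fmo2 and Fmo4 in fetal females, had an unadjusted p below 0.05 in the negative direction (rho -0.615, permutation p 0.0367, adjusted p 0.441; Pearson r -0.445, permutation p 0.146, adjusted p 0.430), with r of -0.610 once 2 livers were left out in the same way.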

How the data were processed

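Libraries from livers and ES lines were made with a stranded total RNA kit, and those from embryos by a single-cell amplification protocol. Per the study's methods and the submitters' processing notes, the authors aligned reads to mm10 (TopHat2 2.0.4, Bowtie2 2.1.0, SAMtools 0.1.18), removed duplicates with Picard and counted reads per gene with HTSeq. The strand setting and annotation of the counting are not given in the sources used here. The authors deposited raw read counts per gene, 1 file per library, with 5 summary rows that were left out of totals. Reads outside genes made up 8.63% to 49.0% of counted reads.

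Counts were tested with edgeR 4.0.16 (quasi-likelihood, TMM, low-count filter, Benjamini-Hochberg over all genes tested), males against females within each stage and adult against fetal liver with sex as a term. Genes were called at an adjusted p below 0.1 and an absolute log2 above 0.5. DESeq2 1.42.0 was an alternative. Scripts were tested on simulated data, in which 193 of 200 genes changed by log2 1 were recovered in fetal liver and 195 of 200 in adult liver. False calls there numbered 7 and 5. Recovery was poorer in ES lines (149 of 200, with 34 false calls) and in eight-cell embryos (42 of 200, with 2 false calls). Intervals are 95%. Correlations used log2 (CPM + 0.5) and 100000 permutations. The classes above and below 40% of mapped reads on genes came from the study's mapping table.

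The 4 genes, the gene lists and the markers were chosen with earlier results of these data known. Genes named were the 4 members, up to 3 called genes of each list with the largest adult difference (others called are given by value), list genes called in fetal liver, and the 3 genes most like each member; other list genes are named with values seen. Gene positions are from GENCODE M21 and the promoter window from RefSeq, whose table matched 3 of the 4 members. Other alternatives were DESeq2 size factors, no filter, leaving out libraries, library-quality subsets or covariates, CPM without TMM factors and a pseudocount of 5.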

Additional observations from a re-analysis of the deposited data

Results flagged for a closer look

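Among the 6 male eight-cell embryos, embryo 6 stood apart from the other 5 for Fmo5, at 3.1872 CPM (22 reads) against 0 in each of the others. These male embryos were the only group of 4 to 10 libraries with any spread to test. With 0 in each of the others, any lone value above 0 would be marked, whatever its count. That embryo had 0 reads of Fmo1, Fmo2 and Fmo4, 1 read of Alb, 0 of Ttr, 291 of Apoa1 and 79 of Chd1l. Apoa1 reads were present in all 6 male and 5 of 6 female embryos, and Chd1l reads in 5 of 6 male and all 6 female embryos.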

How the results depend on the processing

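All 4 adult sex differences kept their direction under DESeq2, DESeq2 size factors, no low-count filter and the outside-gene share as a covariate. They also kept it in both library-quality classes and without any 1 of the 24 adult livers. These differences were among the values that chose the genes. Adult sexes did not overlap for Fmo1, Fmo2 and Fmo4, and for Fmo5 11 of 12 males lay above all females. Leaving out or splitting these livers could therefore hardly turn a direction, and the values are description only. Leaving out 1 liver gave -1.32 to -1.27 for Fmo1, -2.72 to -2.54 for Fmo2, -1.66 to -1.45 for Fmo4 and 0.67 to 0.76 for Fmo5. The fetal differences of Fmo2 and Fmo5 turned to -0.94 and -0.50 with the outside-gene share as a covariate, and that of Bcl9 to -0.091. Without 1 fetal liver Fmo2 ranged from -0.010 (without female 22 or female 23) to 0.31. Without TMM factors log2 (adult/fetal) was -0.093 and 1.42 for Fmo1, 2.61 and 5.28 for Fmo2 and 3.01 and 2.52 for Fmo5 in males and females, and 0.34 for female Fmo4. Genes called between fetal sexes numbered 600, and 1057 without the filter and 9 with the covariate. In adult livers they numbered 985, and 1518 without the filter. In eight-cell embryos they numbered 24, and 80 by DESeq2. In ES lines the count of 1205 ran from 0 (without female line 3 or 4) to 3070 (without male line 2), with the lone remaining line assumed to vary like the others. The causes were not tested. Fetal and adult livers share replicate numbers in their titles but are different animals; with the number as a replicate block 8753 genes were called between stages, against 8750. Leaving out single fetal or adult livers, and the settings for single list genes, were added after the data were seen. Depth limits Fmo4 in adult males (4 to 39 reads per liver) and Fmo2 in fetal livers (5 to 37 reads).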
